A study of Arabidopsis thaliana with 18 samples.

Results

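The comparison described here sets roots of atm-2 rab8d-2 seedlings against roots of rab8d-2 seedlings in Arabidopsis thaliana, over every gene in the deposited table. Its members are the 6 libraries whose table columns carry these genotypes, 3 of each, out of 18 libraries in the series. The seedlings were 4 days old, grew in days of 16 h light with 8 h darkness and had no treatment, and their poly(A) RNA was sequenced. Both groups carry rab8d-2, a mutant allele of RAB8D, so the contrast is between rab8d-2 plants with and without atm-2, a mutant allele of ATM. Values of 3 other groups of 3 libraries each are given beside them: wild type (WT), which carries neither allele, and 2 double mutants, sog1-1 rab8d-2 with a mutant allele of SOG1 and nac085-1 rab8d-2 with a mutant allele of NAC085. A further double mutant, labelled nac044-1 rab8d-2 for a mutant allele of NAC044, is drawn in the figures. It also enters the fit and the comparisons with all other libraries, although its NAC044 RNA was not reduced. Plants with atm-2 and a normal RAB8D were not analysed here, so an effect of atm-2 that needs rab8d-2 and one that does not cannot be told apart. How far the plants of replicate libraries were grown apart is not stated in the labels, so the p-values measure the spread between these libraries, which may be partly technical.

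ATM is a protein kinase that is activated at DNA double-strand breaks. In plants it phosphorylates SOG1, a transcription factor that switches on genes for DNA repair, for inhibitors of cyclin-dependent kinases and for further transcription factors such as NAC044 and NAC085. RAB8D encodes the plastid elongation factor EF-Tu, which brings aminoacyl-tRNA to the plastid ribosome, and the series asks how a shortage of this factor is linked to the DNA damage response.

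ATM (AT3G48190) was measured first, because it checks the labels. Levels are given throughout as CPM, the counts scaled to a common library size, library by library from replicate 1 to 3. ATM had 52.4, 51.5 and 57.1 CPM in rab8d-2 and 5.79, 5.45 and 5.29 CPM in atm-2 rab8d-2. Every library labelled atm-2 was thus below every library without it, at 10.3% of the rab8d-2 mean (log2 fold change -3.28 ± 0.07, standard error, adjusted p = 8.33e-39 by edgeR's quasi-likelihood test). RAB8D (AT4G20360) had 11.6, 11.7 and 10.9 CPM in rab8d-2 and 17.2, 18.1 and 17.9 CPM in atm-2 rab8d-2. Its level rose by 0.63 ± 0.08 on the log2 scale (adjusted p = 1.4e-09) and was still far under WT, where the mean was 90.2 CPM, with 12.6% of that level in rab8d-2 against 19.6% with atm-2 added. For the rab8d-2 libraries the genotype field says wild type, against their titles and descriptions, which were followed.

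All 18 libraries were of like depth, from 20103634 to 20471203 estimated counts. No library stood apart from the others of its genotype on the leading principal component. On that component atm-2 rab8d-2 lay at 42.7 to 42.8 and rab8d-2 at -18.1. The nac085-1 rab8d-2 libraries lay near atm-2 rab8d-2, at 32.83 to 32.87, while WT, sog1-1 rab8d-2 and nac044-1 rab8d-2 had negative values. As a check of the tissue, the endodermis gene CASP1, which builds the Casparian strip, had 51.2 to 91.2 CPM over the 6 libraries. The stomatal regulator SPCH had no count in any of the 6, the shoot stem cell gene WUS had at most 0.0483 CPM and the shoot meristem gene STM at most 0.195 CPM. Differences were called at an adjusted p under 0.05, and "rose" and "fell" are used only of genes past that threshold. Because the roots were measured in bulk, fewer cells of a type and less RNA per cell cannot be told apart in any result given here.

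Most genes differed between the genotypes. Of 19981 genes tested, 6330 were higher in atm-2 rab8d-2 (31.7%) and 5969 were lower (29.9%), or 61.6% in all, with a median log2 fold change of 0.01 over all genes. Much of this was small: 906 genes (4.53%) were at least 2-fold higher and 1080 (5.41%) at least 2-fold lower. These shares of all genes called higher and lower are those to set beside each list count against rab8d-2 below. List counts against other genotypes have other backgrounds among the same 19981 genes. These were 7007 higher and 6694 lower against WT, and 5999 higher and 5553 lower against sog1-1 rab8d-2. Against nac085-1 rab8d-2 they were 4794 higher and 4853 lower. No list was tested as a set. The lower side held more of the large changes, with 326 genes at least 4-fold lower against 145 at least 4-fold higher, and 49 at least 16-fold lower against 16 at least 16-fold higher. Against WT 68.6% of genes differed, against sog1-1 rab8d-2 57.8% and against nac085-1 rab8d-2 48.3%. These comparisons share the atm-2 rab8d-2 libraries, so their values are set side by side and not counted as separate evidence.

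**Figure D1:**
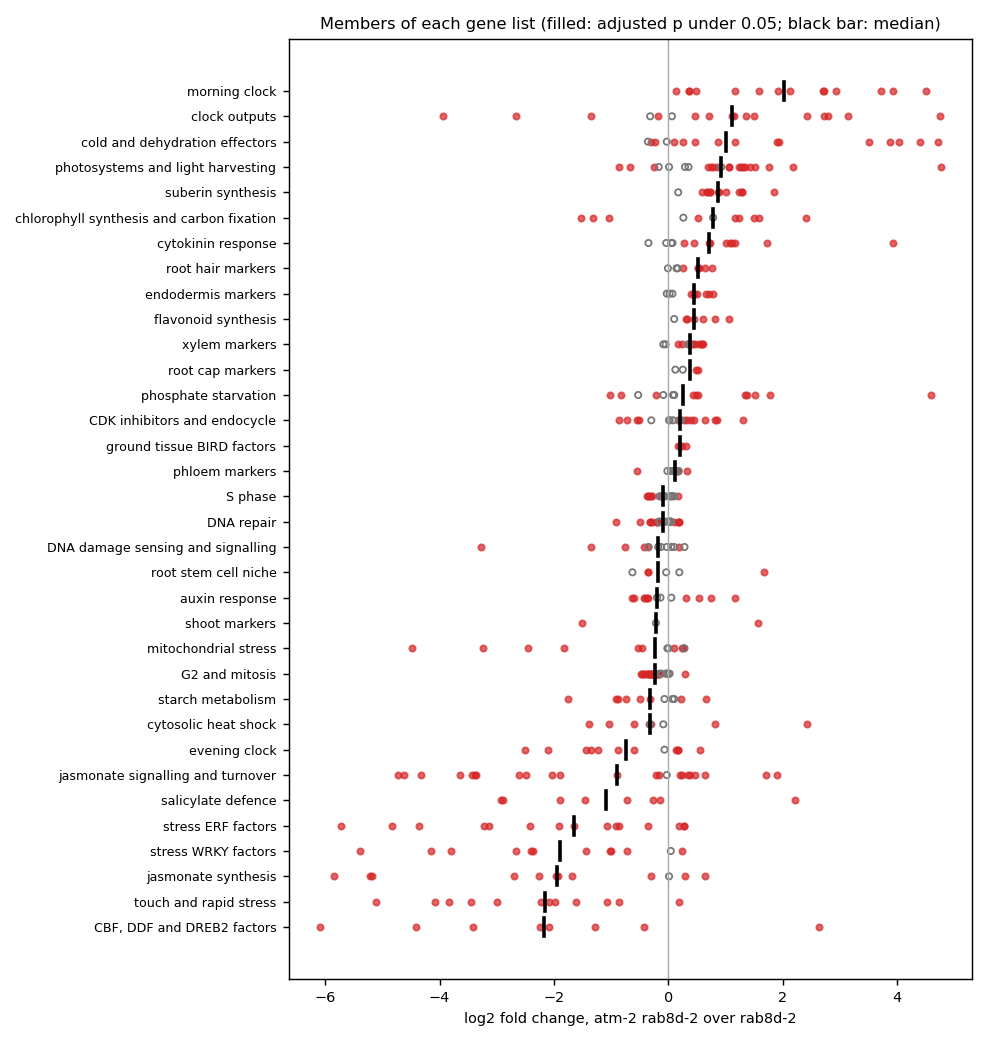
Log2 fold change of atm-2 rab8d-2 over rab8d-2 for the tested members of each gene list, with a black bar at the median of each list. Filled points passed the test (adjusted p under 0.05) and open points did not. AT3G45260, with no count in the double mutant, is not drawn. The jasmonate, touch, WRKY, ERF and CBF lists lie mostly to the left, the morning clock list lies to the right with a median of 2.02, and the medians of the DNA damage and cell cycle lists are close to 0.

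Among genes of DNA damage sensing and signalling, NAC103 and RAD17 fell most after ATM, the mutated gene. Of 13 listed genes, all tested, 1 rose and 5 fell, with a median of -0.18 on the log2 scale. The 5 include ATM itself, and 7 did not pass the test, while 61.6% of all genes were called. NAC103, a transcription factor that acts downstream of SOG1, had 22.4, 22.0 and 21.2 CPM in rab8d-2 and 7.88, 8.67 and 9.07 CPM in atm-2 rab8d-2. The groups did not overlap (log2 fold change -1.36 ± 0.07, adjusted p = 7.43e-22), and the atm-2 rab8d-2 level lay between the WT mean of 4.85 CPM and the sog1-1 rab8d-2 mean of 10.5 CPM. RAD17, a loader of the checkpoint clamp, had 23.5, 22.6 and 22.8 CPM in rab8d-2 and 13.8, 13.8 and 13.1 CPM in atm-2 rab8d-2. Its fall of -0.76 ± 0.06 (adjusted p = 1.97e-15) brought it to the WT mean of 13.3 CPM, from which it did not differ detectably (0.03, adjusted p = 0.711). RAD50, a subunit of the complex that holds broken DNA ends, fell by 0.36 ± 0.04 (adjusted p = 1.1e-10), while the other subunits MRE11 (0.10, adjusted p = 0.259) and NBS1 (-0.13, adjusted p = 0.282) did not pass the test.

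The transcription factors around SOG1 did not behave alike. NAC044 had 19.7, 18.8 and 19.8 CPM in rab8d-2 and 14.5, 14.5 and 14.3 CPM in atm-2 rab8d-2, a fall of -0.43 ± 0.06 (adjusted p = 9.4e-08). It stayed well above the WT mean of 5.17 CPM, by 1.48 on the log2 scale. SOG1 itself had 23.6 to 26.5 CPM in rab8d-2 and 25.3 to 26.9 CPM in atm-2 rab8d-2, with overlapping groups (0.05 ± 0.06, adjusted p = 0.47). NAC085 was scarce, at 1.02 to 2.18 CPM over the 6 libraries, and did not pass the test (-0.35 ± 0.24, adjusted p = 0.213). ATR, the kinase that responds to stalled replication, was the only member that rose, by 0.19 ± 0.07 (adjusted p = 0.0145). That call was lost without rab8d-2 replicate 1 (0.16, adjusted p = 0.0721) and without atm-2 rab8d-2 replicate 1 (0.12, adjusted p = 0.17). WEE1, a kinase that holds cells before mitosis, had overlapping groups (-0.18 ± 0.10, adjusted p = 0.134).

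Among 20 DNA repair genes, 4 rose and 8 fell against rab8d-2, with a median of -0.10, and this share called is close to the 61.6% of all genes. BRCA1, which acts in homologous recombination, had 28.8, 27.2 and 26.4 CPM in rab8d-2 and 14.2, 14.1 and 15.6 CPM in atm-2 rab8d-2. All 3 atm-2 rab8d-2 libraries were thus lower (-0.91 ± 0.06, adjusted p = 2.77e-18), and they were also below the WT mean of 19.4 CPM (-0.41, adjusted p = 3.04e-07). PARP2, a poly(ADP-ribose) polymerase that marks broken DNA, had 35.2, 34.0 and 34.8 CPM in rab8d-2 and 25.2, 29.0 and 28.8 CPM in atm-2 rab8d-2. The groups did not overlap (-0.33 ± 0.05, adjusted p = 4.23e-07), and the level stayed above the WT mean of 16.2 CPM (0.77, adjusted p = 1.38e-15). Other falls were those of RPA1E, a subunit of the single-strand binding protein (-0.33 ± 0.10), PARP1, a relative of PARP2 (-0.28 ± 0.06), the ribonucleotide reductase subunit RNR1 (-0.21 ± 0.04), the meiotic and repair gene XRI1 (-0.18 ± 0.05) and the recombination helicase RAD54 (-0.18 ± 0.06). The RAD54 groups overlapped, and its call was lost without rab8d-2 replicate 3 (-0.14, adjusted p = 0.0674).

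Other repair genes rose slightly or did not pass the test. GMI1, a structural maintenance of chromosomes protein needed for recombination, had 45.3, 45.6 and 45.4 CPM in rab8d-2 and 50.8, 48.5 and 54.1 CPM in atm-2 rab8d-2. It rose by 0.17 ± 0.05 (adjusted p = 0.00167), and the WT mean was 17.8 CPM. TSO2, a small subunit of ribonucleotide reductase, had 110.1, 109.6 and 105 CPM in rab8d-2 and 109, 114 and 108 CPM in atm-2 rab8d-2. Its groups overlapped (0.03 ± 0.03, adjusted p = 0.474), and means in WT and sog1-1 rab8d-2 were 71.5 and 52.7 CPM. KU80, a protein of end joining (0.18 ± 0.04), and RNR2A, another small reductase subunit (0.18 ± 0.06), rose as well. The rise of RNR2A was lost without rab8d-2 replicate 2 (0.14, adjusted p = 0.0558) and without atm-2 rab8d-2 replicate 2 (0.12, adjusted p = 0.0863). LIG4, the ligase of end joining, was at the threshold (0.10 ± 0.05, adjusted p = 0.0462). It was not past it without rab8d-2 replicate 2 or any 1 of the atm-2 rab8d-2 replicates, where the log2 fold change was 0.06 to 0.11 and the adjusted p from 0.0639 to 0.292. SYN2, BARD1, AGO2, KU70, AT4G32700 and COM1 did not pass the test, with log2 fold changes from -0.16 to 0.04.

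The repair list stood higher in atm-2 rab8d-2 than in sog1-1 rab8d-2. Against sog1-1 rab8d-2, 16 of 20 repair genes were higher and none was lower, with a median of 0.30 and with 57.8% of all genes called in either direction. TSO2 differed by 1.07 and GMI1 by 0.86 on the log2 scale (adjusted p = 6.02e-29 and 1.01e-19). The difference was turned round for NAC103, which was lower in atm-2 rab8d-2 than in sog1-1 rab8d-2 (-0.30, adjusted p = 0.00198). Against WT 12 repair genes were higher and 1, BRCA1, was lower (median 0.18), and against nac085-1 rab8d-2 11 were higher and none was lower (median 0.18). As shown in the plot of BRCA1, NAC103, RAD17, PARP2, KRP2 and KRP6, the genotypes held different ranks from gene to gene.

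**Figure D2:**
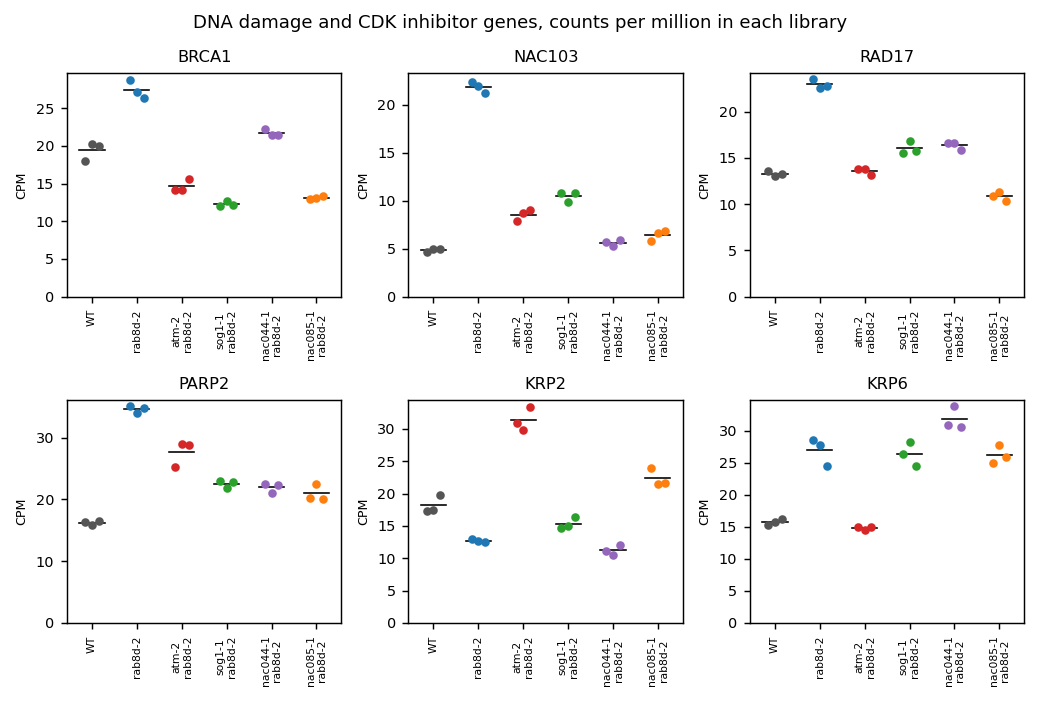
Normalised CPM (linear axis from 0) of BRCA1, NAC103, RAD17, PARP2, KRP2 and KRP6 in each library of 6 genotypes, with a black line at the mean of 3 libraries. KRP2 is at 29.9 to 33.4 CPM in atm-2 rab8d-2 and at 12.5 to 13.0 CPM in rab8d-2, and KRP6 is at 14.5 to 15 against 24.5 to 28.5 CPM. The libraries labelled nac044-1 rab8d-2 are drawn under that label although their NAC044 RNA was not reduced.

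The promoter of PARP2 is shown because the gene fell and carries the sequence pattern that SOG1 is known to bind, CTT and AAG set 7 bases apart. The 250 bases before the annotated start come from RefSeq (TAIR10.1, chromosome 4, plus strand), with the CTT and the AAG in capitals; the pattern ends 83 bases before the start.
PARP2: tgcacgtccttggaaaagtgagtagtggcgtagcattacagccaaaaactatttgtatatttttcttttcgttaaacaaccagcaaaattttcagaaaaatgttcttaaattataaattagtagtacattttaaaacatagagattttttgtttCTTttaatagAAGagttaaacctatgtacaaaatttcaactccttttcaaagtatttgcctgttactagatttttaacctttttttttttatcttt
As CTT and AAG are complements, the pattern reads the same on both strands. It occurred in 5 of 20 repair gene promoters (25.0%), among them RAD54, PARP2, COM1 and AT4G32700, and in 9.15% of the 19969 promoters of tested genes that the reference holds. RAD54 and PARP2 fell while COM1 (-0.16) and AT4G32700 (0.04) did not pass the test, so carriers of the pattern moved differently. No match was found in this window of BRCA1, NAC103 or RAD17, which says only that the pattern is not within these 250 bases.

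Inhibitors of cyclin-dependent kinases and activators of the endocycle moved in both directions. Of 19 tested genes 9 rose and 4 fell, with a median of 0.20, a share called that is near the 61.6% of all genes. KRP2, an inhibitor of the kinase that drives entry into S phase, had 13.0, 12.6 and 12.5 CPM in rab8d-2 and 30.9, 29.9 and 33.4 CPM in atm-2 rab8d-2. The groups were far apart (1.31 ± 0.06, adjusted p = 6.14e-23), and the atm-2 rab8d-2 level was also above the means of sog1-1 rab8d-2 (15.3 CPM) and nac085-1 rab8d-2 (22.4 CPM). KRP6, of the same family, went the other way, with 28.5, 27.8 and 24.5 CPM in rab8d-2 and 15, 14.5 and 14.9 CPM in atm-2 rab8d-2. It fell by 0.86 ± 0.07 on the log2 scale (adjusted p = 4.31e-16) to the WT mean of 15.7 CPM (-0.09, adjusted p = 0.297), while its mean was 26.4 CPM in sog1-1 rab8d-2 and 26.2 CPM in nac085-1 rab8d-2. Direct tests put KRP6 in atm-2 rab8d-2 below both (-0.84 and -0.83, adjusted p = 2.65e-15 and 7.71e-15).

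SIM, an inhibitor that promotes endoreplication, had 27.2 to 27.8 CPM in rab8d-2 and 42.6 to 43.1 CPM in atm-2 rab8d-2 (0.63 ± 0.06, adjusted p = 4.32e-14). CCS52A1, an activator of the anaphase-promoting complex in endocycling cells, rose by 0.44 ± 0.06, and CCS52A2, its relative in the root meristem, by 0.28 ± 0.07. CCS52B, the relative that is used in mitotic cells, fell by 0.51 ± 0.06 (adjusted p = 3.83e-11). Of the inhibitors known to respond to DNA damage, SMR5 was scarce at 0.388 to 1.01 CPM and did not pass the test (-0.30, adjusted p = 0.474). SMR7 had 2.78 to 4.09 CPM in rab8d-2 and 3.95 to 4.85 CPM in atm-2 rab8d-2, with overlapping groups (0.40 ± 0.14, adjusted p = 0.0128). That call was lost without rab8d-2 replicate 2 (0.35, adjusted p = 0.054) or 3 (0.28, adjusted p = 0.107) and without atm-2 rab8d-2 replicate 3 (0.31, adjusted p = 0.0914). The fall of SMR4 (-0.55 ± 0.17) was lost without rab8d-2 replicate 2 (-0.38, adjusted p = 0.0753), and the rise of KRP4 (0.16 ± 0.07) without rab8d-2 replicate 1 (0.13, adjusted p = 0.132) or atm-2 rab8d-2 replicate 2 (0.10, adjusted p = 0.251).

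Genes of G2 and mitosis were slightly lower in atm-2 rab8d-2. Of 26 tested genes 18 fell and 1 rose, with a median of -0.24, and none changed 2-fold. Of all genes 29.9% were lower. CYCB2;4, a mitotic cyclin, had 21.9, 21.2 and 22.4 CPM in rab8d-2 and 15.2, 16.9 and 14.8 CPM in atm-2 rab8d-2. The groups did not overlap (-0.48 ± 0.06, adjusted p = 1.57e-09). The mitotic kinase AUR1 (-0.42 ± 0.07), the anaphase activator CDC20.1 (-0.36 ± 0.04) and the cytokinesis syntaxin KNOLLE (-0.22 ± 0.05) fell as well, and the cyclin CYCA1;1 was the member that rose (0.29 ± 0.08). CYCB1;1, a mitotic cyclin that DNA damage also induces, had a mean of 17.1 CPM in rab8d-2 and 15.7 to 18.3 CPM in atm-2 rab8d-2 (0.00 ± 0.07, adjusted p = 0.979), with a WT mean of 9.01 CPM. Without any 1 library, 14 to 17 of the list fell.

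Of 19 S phase genes, 6 fell and 1 rose, with a median of -0.09. The share that fell is near the 29.9% of all genes, and the share called is below the 61.6% of all genes. CDC45, a part of the replicative helicase, had 10.3 to 11.5 CPM in rab8d-2 and 8.23 to 8.54 CPM in atm-2 rab8d-2 (-0.38 ± 0.09, adjusted p = 0.000165). The origin loader CDC6 (-0.35 ± 0.09), the catalytic subunit of DNA polymerase alpha ICU2 (-0.34 ± 0.05), the cyclin CYCA3;2 (-0.31 ± 0.05) and the sliding clamp PCNA2 (-0.28 ± 0.06) fell too. MCM4, a subunit of the same helicase as CDC45, fell by 0.14 ± 0.05, a call lost without rab8d-2 replicate 2 (-0.12, adjusted p = 0.0599) or 3 (-0.10, adjusted p = 0.115). The licensing factor CDT1A rose by 0.16 ± 0.06 (adjusted p = 0.0141).

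The circadian clock genes gave some of the largest differences in the comparison. The plant clock is a loop in which CCA1 and LHY, transcription factors made around dawn, repress TOC1 and other genes made around dusk, and the PRR proteins and the evening complex of ELF3, ELF4 and LUX repress them in turn. All 14 tested morning clock genes rose, with a median of 2.02. CCA1 had 0.674, 0.338 and 0.959 CPM in rab8d-2 and 15.2, 15 and 15 CPM in atm-2 rab8d-2 (4.51 ± 0.15, adjusted p = 1.9e-30). LHY had 0.866, 0.628 and 0.815 CPM in rab8d-2 and 13.0, 11.2 and 11.3 CPM in atm-2 rab8d-2 (3.93 ± 0.16, adjusted p = 9.68e-27). For these genes the WT and nac085-1 rab8d-2 means were also low, at 0.686 to 1.09 CPM, and the sog1-1 rab8d-2 means were high, at 19.1 CPM for CCA1 and 13.8 CPM for LHY.

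PRR9, a repressor of CCA1 made in the morning, had 4.14, 4.40 and 3.59 CPM in rab8d-2 and 53.7, 53.5 and 53.3 CPM in atm-2 rab8d-2. It rose by 3.72 ± 0.07 on the log2 scale (adjusted p = 4.69e-39) and was also higher than in sog1-1 rab8d-2, which had 27.7 CPM (0.95, adjusted p = 1.61e-21). The LNK coactivators of the clock rose together, LNK2 by 2.92 ± 0.05, LNK4 by 2.72 ± 0.07, LNK3 by 2.70 ± 0.16 and LNK1 by 1.17 ± 0.04. LNK2 had 10.4 to 10.7 CPM in rab8d-2, 78.5 to 80.9 CPM in atm-2 rab8d-2 and a mean of 125 CPM in sog1-1 rab8d-2, from which it differed by -0.64 (adjusted p = 1.5e-21). Relatives of CCA1 rose to different extents: RVE1 by 2.12 ± 0.09, RVE8 by 1.92 ± 0.10, RVE7 by 1.58 ± 0.08 and RVE4 by 0.35 ± 0.06. RVE7 had 6.96, 7.49 and 7.57 CPM in rab8d-2, 22.4, 21.4 and 21.9 CPM in atm-2 rab8d-2 and a mean of 6.87 CPM in sog1-1 rab8d-2, so it was high in atm-2 rab8d-2 and not in sog1-1 rab8d-2 (1.67, adjusted p = 1.33e-23). The rise of RVE2 was at the threshold (0.13 ± 0.06, adjusted p = 0.0498), and without rab8d-2 replicate 1 or 3 or atm-2 rab8d-2 replicate 2 or 3 its log2 fold change was 0.08 to 0.12 with an adjusted p from 0.125 to 0.329.

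Evening clock genes were lower in the main, with 7 of 12 falling, 4 rising and a median of -0.74. TOC1, the repressor of CCA1 made at dusk, had 204, 193 and 202 CPM in rab8d-2 and 69.9, 72.3 and 77.1 CPM in atm-2 rab8d-2 (-1.45 ± 0.03, adjusted p = 9.42e-37). ELF4 had 136, 121 and 123 CPM in rab8d-2 and 29.1, 30.8 and 28.1 CPM in atm-2 rab8d-2 (-2.11 ± 0.05, adjusted p = 9.48e-37). BOA, a close relative of LUX, had 44.6, 42.6 and 43.5 CPM in rab8d-2 and 7.30, 7.40 and 8.20 CPM in atm-2 rab8d-2 (-2.51 ± 0.06, adjusted p = 7.4e-36). In each of the 3 the genotypes did not overlap. LUX (-1.35 ± 0.04), the flowering-time F-box protein FKF1 (-1.23 ± 0.06), PRR3 (-0.88 ± 0.05) and the TCP factor CHE (-0.61 ± 0.06) also fell. PRR5 rose by 0.55 ± 0.05, GI by 0.14 ± 0.03 and the blue-light F-box proteins ZTL and LKP2 by 0.17 each, and ELF3 did not pass the test (-0.07, adjusted p = 0.0741). The LKP2 call was lost without atm-2 rab8d-2 replicate 1 (0.14, adjusted p = 0.0582).

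**Figure D3:**
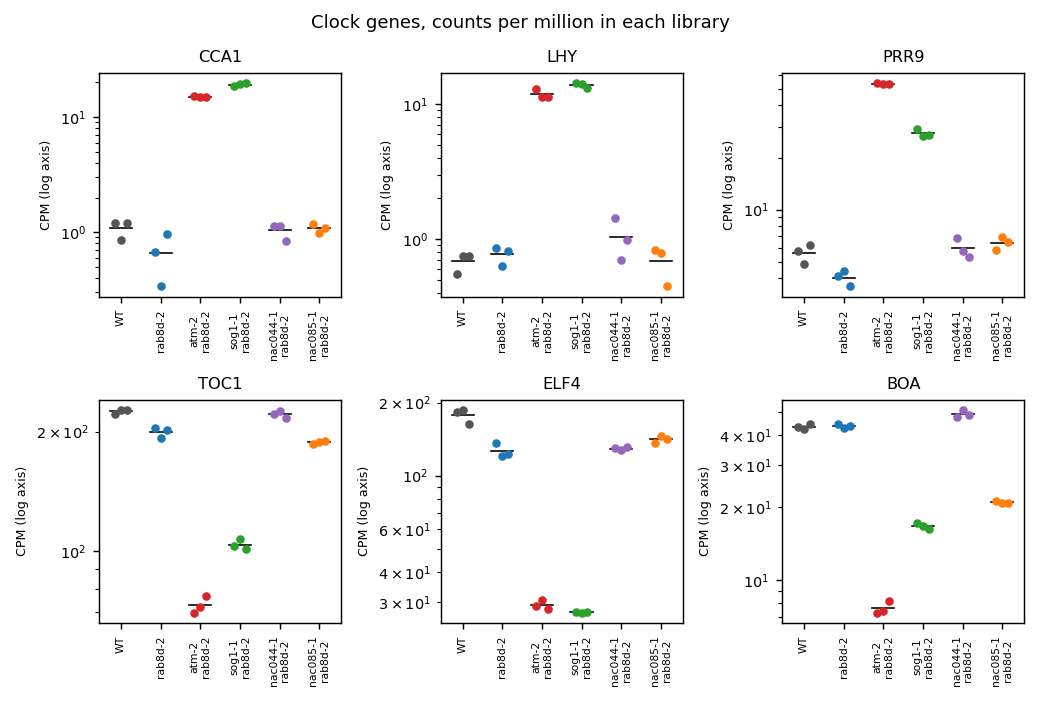
Normalised CPM (log axis) of CCA1, LHY, PRR9, TOC1, ELF4 and BOA in each library of 6 genotypes, with a black line at the mean of 3 libraries. The atm-2 rab8d-2 and sog1-1 rab8d-2 libraries are high for CCA1, LHY and PRR9 and low for TOC1, ELF4 and BOA, and the other genotypes are on the opposite side, with nac085-1 rab8d-2 at 21.0 CPM for BOA between them.

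Targets and outputs of the clock moved in both directions, with 11 of 17 tested genes (20 listed) rising, 4 falling and a median of 1.11. COR27, a cold-regulated gene that feeds into the clock, had 22.4, 23.4 and 21.3 CPM in rab8d-2 and 1.36, 1.46 and 1.5 CPM in atm-2 rab8d-2 (-3.95 ± 0.12, adjusted p = 2.73e-32). GRP7, an RNA-binding protein with an evening peak, had 1840.2, 1784 and 1950.4 CPM in rab8d-2 and 709, 753 and 725 CPM in atm-2 rab8d-2 (-1.35 ± 0.03, adjusted p = 1.65e-35). GRP8, its close relative, did not pass the test (0.06 ± 0.03, adjusted p = 0.0936). The B-box protein STO had 93.3, 96.7 and 98.4 CPM in rab8d-2 and 269.6, 276 and 269 CPM in atm-2 rab8d-2 (1.5 ± 0.03, adjusted p = 7.69e-38). Other B-box genes rose with it, among them BBX28 by 3.14 ± 0.09 and BBX31 by 2.43 ± 0.14, and so did the Dof factor CDF3 by 2.72 ± 0.07. STH, another B-box gene, had a mean of 25.5 CPM in atm-2 rab8d-2, 6.14 CPM in sog1-1 rab8d-2 and 4.40 CPM in nac085-1 rab8d-2, and the direct differences were 2.06 and 2.54 on the log2 scale (adjusted p = 8.24e-28 and 1.51e-29).

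Against sog1-1 rab8d-2 the morning clock list was split, with 5 genes higher, 5 lower and a median of -0.08, and so was the evening clock list, with 5 higher, 4 lower and a median of 0.06. Against nac085-1 rab8d-2 the morning list had 12 higher and 2 lower (median 1.63) and the evening list 1 higher and 10 lower (median -0.88). The labels give no hour of harvest, so genotype and time of harvest cannot be told apart for clock genes. The same holds for any gene in the other lists whose level changes over the day.

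The promoters of 4 clock genes are shown, TOC1 and BOA among those that fell and CCA1 and LHY among those that rose, because they carry elements known from clock genes. The evening element AAAATATCT, through which CCA1 and its relatives act, lies in TOC1 and BOA, and the G-box CACGTG, a site of light- and clock-related factors, in CCA1 and LHY. Each is the 250 bases before the annotated start in RefSeq (TAIR10.1), on chromosome 5, plus strand for TOC1 and BOA, chromosome 2, plus strand for CCA1 and chromosome 1, minus strand for LHY. Capitals mark the evening element in TOC1 and BOA and the G-box in CCA1 and LHY, on whichever strand it matched, 142, 34, 187 and 74 bases before the start in that order.
TOC1: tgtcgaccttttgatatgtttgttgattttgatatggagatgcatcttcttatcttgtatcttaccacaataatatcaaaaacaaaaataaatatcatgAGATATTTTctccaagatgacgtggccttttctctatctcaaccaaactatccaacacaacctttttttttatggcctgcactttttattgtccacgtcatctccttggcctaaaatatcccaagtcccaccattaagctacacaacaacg
BOA: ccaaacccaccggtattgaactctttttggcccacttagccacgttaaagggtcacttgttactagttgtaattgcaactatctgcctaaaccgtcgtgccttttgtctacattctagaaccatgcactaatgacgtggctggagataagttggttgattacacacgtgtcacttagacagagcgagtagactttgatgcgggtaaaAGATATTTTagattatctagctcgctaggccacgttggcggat
CCA1: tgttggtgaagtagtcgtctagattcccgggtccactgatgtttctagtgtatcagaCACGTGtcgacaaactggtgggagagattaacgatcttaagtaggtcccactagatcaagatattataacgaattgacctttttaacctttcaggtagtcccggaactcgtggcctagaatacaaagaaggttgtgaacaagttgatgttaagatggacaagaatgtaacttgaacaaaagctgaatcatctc
LHY: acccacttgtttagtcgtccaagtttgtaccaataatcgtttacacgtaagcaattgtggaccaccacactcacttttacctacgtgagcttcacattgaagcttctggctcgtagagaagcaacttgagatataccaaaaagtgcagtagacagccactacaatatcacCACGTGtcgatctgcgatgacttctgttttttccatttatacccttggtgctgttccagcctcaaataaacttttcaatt
The evening element was found on either strand in 5 of 12 evening clock promoters (41.7%: BOA, FKF1, LUX, PRR5 and TOC1), in 4 of 17 of the output promoters (23.5%: COR27, GRP7, GRP8 and STO) and in 2.44% of all promoters of tested genes. Of those, BOA, FKF1, LUX, TOC1, COR27 and GRP7 fell, PRR5 and STO rose and GRP8 did not pass the test, and RVE7 among the morning genes carried it and rose. The G-box was found in 7 of 14 morning clock promoters (50.0%: CCA1, LHY, LNK3, PRR7, PRR9, RVE1 and RVE2), in 2 of 12 evening clock promoters (16.7%: BOA, where it is not marked, and LUX, which both fell) and in 7.24% of all. Neither element thus separated the genes that rose from those that fell. The related site AAAAATCT, also known to bind CCA1, occurred in 2 of 14 morning clock promoters (14.3%) and in 6.71% of all. A match is a description of the sequence and was not tested for binding.

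Jasmonate genes were among the most strongly lowered. Jasmonate is a lipid hormone of wounding, made in the plastid by lipoxygenases and then the enzymes AOS and AOC, and finished in the peroxisome by OPR3. Its receptor COI1 removes JAZ repressors from MYC transcription factors, and the genes for most of these proteins are themselves switched on by the hormone. Of 12 tested synthesis genes 9 fell and 2 rose, with a median of -1.95. LOX3, a lipoxygenase, had 68.7, 72.3 and 68.1 CPM in rab8d-2 and 1.12, 2.19 and 2.28 CPM in atm-2 rab8d-2 (-5.22 ± 0.09, adjusted p = 1.23e-42). The groups lay over an order of magnitude apart, and LOX4, another lipoxygenase, behaved alike (-5.18 ± 0.09). Falls were smaller than those of LOX3 and LOX4 for AOS (-2.26 ± 0.04), AOC3 (-1.97 ± 0.04), OPR3 (-1.69 ± 0.03) and the CoA ligase OPCL1 (-2.70 ± 0.03). ACX1, an enzyme of the last chain-shortening steps (0.29 ± 0.02), and JAR1, which joins jasmonate to isoleucine (0.64 ± 0.03), rose.

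ORA47, an ERF-type activator of the synthesis genes, had 45.8, 50.4 and 50.1 CPM in rab8d-2 and 0.827, 0.779 and 0.922 CPM in atm-2 rab8d-2 (-5.84 ± 0.10, adjusted p = 4.41e-42). It was also reduced in sog1-1 rab8d-2, with a mean of 8.58 CPM against which atm-2 rab8d-2 was lower still (-3.34, adjusted p = 2.48e-24).

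Of 23 genes of jasmonate signalling and turnover, 14 fell and 8 rose, with a median of -0.90. JAZ10, a repressor, had 111, 109 and 108 CPM in rab8d-2 and 5.79, 5.36 and 5.24 CPM in atm-2 rab8d-2 (-4.32 ± 0.06, adjusted p = 3.33e-45). Means in WT and sog1-1 rab8d-2 were high, at 90.5 and 124 CPM, and the nac085-1 rab8d-2 mean of 13.3 CPM was above that of atm-2 rab8d-2 (-1.29, adjusted p = 2e-16). Most of the other repressors fell, by differing amounts, from JAZ7 (-4.73 ± 0.08), JAZ8 (-4.62 ± 0.14) and JAZ6 (-3.64 ± 0.04) to JAZ1 (-2.03 ± 0.03), JAZ3 (-0.90 ± 0.04) and JAZ12 (-0.17 ± 0.04), while JAZ11 rose (0.34 ± 0.07) and JAZ4 did not pass the test (-0.03, adjusted p = 0.728). MYC2, the leading activator, had 499, 510.4 and 501 CPM in rab8d-2 and 137, 135 and 136 CPM in atm-2 rab8d-2 (-1.89 ± 0.03, adjusted p = 6e-46). Its relatives MYC3 (0.24 ± 0.03) and MYC4 (0.47 ± 0.05) rose, as did COI1 (0.37 ± 0.04). CYP94B3, which inactivates the hormone by oxidation, fell by 3.36 ± 0.05, while CYP94B1, of the same enzyme family, rose by 0.64 ± 0.04. VSP1, a storage protein that jasmonate induces in leaves, rose by 1.71 ± 0.11 from 2.89 to 3.45 CPM in rab8d-2 to 8.83 to 11.3 CPM in atm-2 rab8d-2.

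Genes that respond to touch and other rapid stimuli fell almost without exception, 11 of 12, with a median of -2.15 and ZAT6 rising (0.18 ± 0.05). TCH4, a cell wall enzyme named for its response to touch, had 204, 199 and 199.6 CPM in rab8d-2 and 18.1, 18.1 and 18.4 CPM in atm-2 rab8d-2 (-3.46 ± 0.04, adjusted p = 2.49e-47). The calmodulin-like genes CML39 (-5.12 ± 0.11), CML37 (-4.09 ± 0.07) and CML38 (-3.83 ± 0.05) fell further, and the stress-activated kinase MPK3 fell by 2.99 ± 0.04. Against WT all 12 were lower, with a median of -2.69, and against nac085-1 rab8d-2 4 were lower and 1 was higher, with a median of -0.10.

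Transcription factors of the same rapid response moved with them. Of 12 stress WRKY genes 10 fell and 1 rose (median -1.90). WRKY40 had 234, 228 and 227 CPM in rab8d-2 and 5.30, 5.45 and 5.58 CPM in atm-2 rab8d-2 (-5.40 ± 0.05, adjusted p = 7.05e-52). WRKY46 (-4.16 ± 0.11), WRKY18 (-3.81 ± 0.04) and WRKY33 (-2.36 ± 0.03), which act in defence, fell as well, and WRKY11 rose (0.24 ± 0.04). Of 15 stress ERF genes 12 fell and 3 rose (median -1.66). ERF109 had 231, 232 and 236 CPM in rab8d-2 and 4.14, 4.77 and 4.27 CPM in atm-2 rab8d-2 (-5.73 ± 0.05, adjusted p = 7.32e-54). ERF13 (-4.84 ± 0.10) and ERF11 (-4.36 ± 0.09) fell nearly as far. ERF115, which drives stem cell renewal after damage in the root, had 2.37 to 2.94 CPM in rab8d-2 and 1.26 to 1.51 CPM in atm-2 rab8d-2 (-0.91 ± 0.18, adjusted p = 3.57e-05), with means of 0.535 CPM in WT and 1.03 CPM in sog1-1 rab8d-2.

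**Figure D4:**
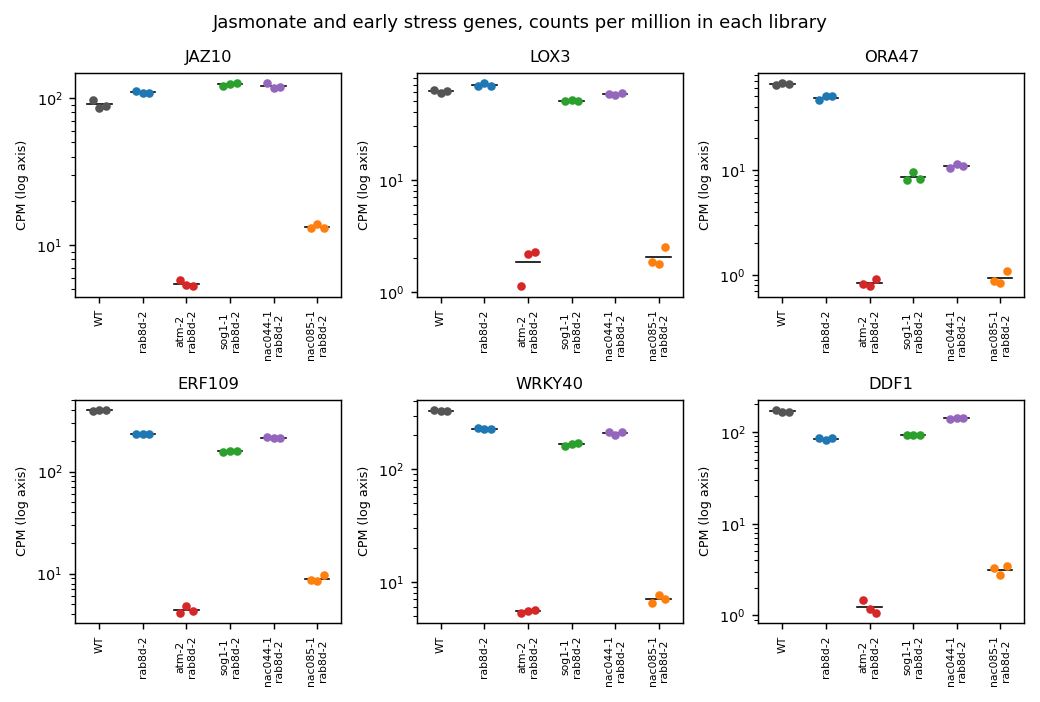
Normalised CPM (log axis) of JAZ10, LOX3, ORA47, ERF109, WRKY40 and DDF1 in each library of 6 genotypes, with a black line at the mean of 3 libraries. The atm-2 rab8d-2 and nac085-1 rab8d-2 libraries are low and the other genotypes are high, and for ORA47 sog1-1 rab8d-2, at 8.58 CPM, and nac044-1 rab8d-2 stand between them.

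For several of these genes the atm-2 rab8d-2 level was far under that of WT as well. The WT means were 333 CPM for WRKY40, 399 CPM for ERF109, 302 CPM for MPK3 and 547 CPM for MYC2, and the direct log2 fold changes were -5.93, -6.50, -3.46 and -2.01. ERF115 was not so, with its WT mean below every atm-2 rab8d-2 library. Against nac085-1 rab8d-2 the differences were small for many of them, with medians of -0.23 for jasmonate synthesis and -0.15 for jasmonate signalling, and ERF109 was lower in atm-2 rab8d-2 (-1.03, adjusted p = 9.36e-14). Against sog1-1 rab8d-2, 11 of 12 synthesis genes were lower, with a median of -1.97. The W-box TTGACC, the site of WRKY factors, was found in 18.7% of the 1079 promoters of genes at least 2-fold lower, in 11.4% of the 906 of genes at least 2-fold higher and in 12.4% of all. The GCC box GCCGCC of ERF factors was found in 2.87%, 0.773% and 1.95% of these promoters in the same order. Handling at harvest is not described in the labels, so genotype and handling cannot be told apart for touch and wounding genes.

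The CBF, DDF and DREB2 genes encode related activators that bind the core CCGAC in promoters of cold and drought genes. Of 8 tested, 7 fell and CBF3 rose, with a median of -2.17. DDF1 had 87.0, 81.3 and 85.4 CPM in rab8d-2 and 1.46, 1.17 and 1.07 CPM in atm-2 rab8d-2 (-6.09 ± 0.08, adjusted p = 7.15e-47). DREB2A (-2.09 ± 0.06), CBF1 (-2.25 ± 0.24) and CBF2 (-1.28 ± 0.08) fell as well. CBF4 had 51 counts in all in rab8d-2 and 2 in all with atm-2 added, a ratio of 25.2 with a 95% exact interval from 6.64 to 214, which covers counting error only. CBF3 had 0.578, 0.725 and 0.623 CPM in rab8d-2 and 4.09, 4.04 and 3.93 CPM in atm-2 rab8d-2 (2.64 ± 0.22, adjusted p = 9.11e-15). CBF1, CBF2 and CBF3 are tandem copies of like sequence, and reads shared between them could have been split by the authors' counting, so their individual values are uncertain.

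Proteins that protect cells in cold and drought were encoded by genes that rose, although most of these activators fell. Of 16 cold and dehydration effectors tested (19 listed) 12 rose and 2 fell, with a median of 1.01. RD29A, a hydrophilic stress protein, had 129, 126 and 126 CPM in rab8d-2 and 1379, 1489 and 1465 CPM in atm-2 rab8d-2. Every atm-2 rab8d-2 library was far above every rab8d-2 library (3.51 ± 0.03, adjusted p = 9.71e-55), and the means were 48.3 CPM in WT, 381 CPM in sog1-1 rab8d-2 and 1294 CPM in nac085-1 rab8d-2. COR413-PM1, a membrane protein of the cold response, had 347, 359 and 349 CPM in rab8d-2 and 1357, 1379 and 1307 CPM in atm-2 rab8d-2 (1.94 ± 0.03, adjusted p = 6.88e-46). KIN1 and KIN2 rose by 3.87 ± 0.10 and 4.03 ± 0.05, and as they are near-identical neighbours their separate values are uncertain. The dehydrins LTI30 (0.86 ± 0.04), COR47 (0.46 ± 0.02) and ERD10 (0.25 ± 0.03) rose and ERD14, of the same family, fell (-0.30 ± 0.03).

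ADH1, an alcohol dehydrogenase induced by low oxygen and cold, had 2.02 to 3.29 CPM in rab8d-2 and a mean of 10.4 CPM in atm-2 rab8d-2 (1.89 ± 0.12, adjusted p = 1.74e-18). It was higher in the other double mutants, with means of 36.7 CPM in sog1-1 rab8d-2 and 74.9 CPM in nac085-1 rab8d-2 (-1.82 and -2.85 against them). COR15A, a plastid cold protein, had no count in rab8d-2 and 36 counts over the 3 atm-2 rab8d-2 libraries. With a floor of 3 counts over the group of libraries at 0, it was at least 12.1-fold higher. In summed CPM the list had 5439 to 5672 in rab8d-2, 9073 to 9243 in atm-2 rab8d-2, 5849.7 to 5997 in WT and 11576 to 11869 in nac085-1 rab8d-2.

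The promoter of RD29A is shown because it holds 3 copies of CCGAC, given in capitals, in the 250 bases before the annotated start (RefSeq, TAIR10.1, chromosome 5, plus strand), the nearest 28 bases from it.
RD29A: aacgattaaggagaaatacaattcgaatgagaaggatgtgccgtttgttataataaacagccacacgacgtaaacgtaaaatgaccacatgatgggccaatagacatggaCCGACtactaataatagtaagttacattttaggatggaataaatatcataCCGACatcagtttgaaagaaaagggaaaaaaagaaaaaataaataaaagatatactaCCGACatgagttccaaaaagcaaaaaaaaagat
The core was found on either strand in 6 of 16 effector promoters (37.5%: RD29A, COR413-PM1, ERD7, GOLS2, GOLS3 and LTI30) and in 12.9% of all. Of these GOLS2 did not pass the test (-0.36, adjusted p = 0.50) and ERD7 rose by 0.10, so the carriers ranged widely.

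Cytokinin response genes rose, 10 of 14 with none falling and a median of 0.71. Cytokinin is a hormone of cell division and differentiation, and its type-A response regulators and CKX oxidases are induced by it and damp it. CKX4 had 1.3, 1.69 and 1.87 CPM in rab8d-2 and 24.7, 24.3 and 24.7 CPM in atm-2 rab8d-2 (3.92 ± 0.11, adjusted p = 1.86e-33). Its mean was 13.3 CPM in sog1-1 rab8d-2 and 8.05 CPM in nac085-1 rab8d-2, from which atm-2 rab8d-2 differed by 0.88 and 1.61 on the log2 scale (adjusted p = 1.44e-15 and 4.44e-23). The response regulator ARR8 had 59.2 to 60.5 CPM in rab8d-2 and 122 to 130.3 CPM in atm-2 rab8d-2 (1.08 ± 0.03, adjusted p = 4.77e-31), and ARR3 rose by 0.70 ± 0.05. ARR5, a widely used reporter of the hormone, did not pass the test (0.05 ± 0.04, adjusted p = 0.256), and neither did ARR15 (-0.35, adjusted p = 0.185).

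Auxin response genes were mixed, with 4 of 13 rising, 6 falling and a median of -0.20. IAA2, an early auxin-induced repressor, had 81.6 to 85.3 CPM in rab8d-2 and 62.5 to 67.3 CPM in atm-2 rab8d-2 (-0.37 ± 0.04, adjusted p = 1.22e-11). The auxin-conjugating enzymes went both ways, GH3.3 falling by 0.60 ± 0.12 and GH3.6 rising by 0.75 ± 0.06.

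Of 8 salicylate defence genes tested (10 in the table) 7 fell and 1 rose, with a median of -1.10. SARD1 (-2.89 ± 0.16) and CBP60G (-2.93 ± 0.14), paired activators of salicylate synthesis, fell most, and PAD4, a lipase-like defence regulator, had 98.6 to 101 CPM in rab8d-2 and 24.8 to 28.8 CPM in atm-2 rab8d-2 (-1.89 ± 0.04, adjusted p = 9.38e-38). FRK1, a receptor kinase induced by microbial patterns, rose by 2.21 ± 0.17. PR1 and PR5, late markers of the response, had no count in any of the 6 libraries.

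Mitochondrial stress genes had 6 of 12 falling and 3 rising, with a median of -0.24. OM66, an outer membrane protein of stressed mitochondria, had 168, 175 and 163 CPM in rab8d-2 and 30.5, 30 and 31.9 CPM in atm-2 rab8d-2 (-2.45 ± 0.04, adjusted p = 1.2e-42). DIC1, a dicarboxylate carrier, fell by 1.83 ± 0.03, and the alternative oxidase AOX1A by 0.47 ± 0.03. The transcription factor NAC013, which switches such genes on, did not pass the test, with 40.7 to 41.1 CPM in rab8d-2 and 38.7 to 43.3 CPM in atm-2 rab8d-2 (0.00 ± 0.05, adjusted p = 0.96). Cytosolic heat shock genes had 5 of 9 falling and 2 rising (median -0.32), with the chaperone HSP90.1 falling by 1.39 ± 0.04 and the small heat shock gene HSP17.6II, at 0.479 to 3.75 CPM over the 6 libraries, rising by 2.42 ± 0.23.

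Phosphate starvation genes had 8 of 16 tested (18 listed) rising and 3 falling, with a median of 0.26. SPX1, a phosphate sensor, had 12.9, 13.1 and 14 CPM in rab8d-2 and 48.5, 41.9 and 46.5 CPM in atm-2 rab8d-2 (1.77 ± 0.06, adjusted p = 1.25e-29). The transporters PHT1;4 (1.52 ± 0.04) and PHT1;1 (0.52 ± 0.03) and the acid phosphatase PAP17 (1.38 ± 0.06) rose, and the sulfolipid enzyme SQD2 fell (-0.22 ± 0.04). RNS1, a ribonuclease of phosphate starvation and wounding, had 2.70, 2.03 and 2.49 CPM in rab8d-2 and 58.6, 54.7 and 61.1 CPM in atm-2 rab8d-2, with WT at 0.251 CPM.

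Flavonoid synthesis genes rose slightly, 6 of 7 tested (12 listed) with none falling and a median of 0.44. CHS, the entry enzyme, had 351 to 356 CPM in rab8d-2 and 438 to 456 CPM in atm-2 rab8d-2 (0.33 ± 0.03, adjusted p = 4.2e-16), below the WT mean of 592 CPM. Against sog1-1 rab8d-2 all 7 were higher, with a median of 0.82. Starch metabolism genes had 6 of 11 falling and 2 rising (median -0.32). The degrading enzymes PHS2 (-0.89 ± 0.05) and DPE1 (-0.74 ± 0.07) fell, and the starch-phosphorylating enzyme SEX1 rose (0.65 ± 0.03).

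Markers of differentiated root cells gave a graded picture, drawn as summed levels. Suberin is the lipid polymer that seals older endodermis, and 12 of 13 suberin genes rose with none falling and a median of 0.87. ASFT, the feruloyl transferase of suberin, had 137, 135 and 136 CPM in rab8d-2 and 334, 335 and 321 CPM in atm-2 rab8d-2 (1.28 ± 0.03, adjusted p = 2.35e-37). The list summed to 373 to 382 CPM in rab8d-2, 755 to 779 in atm-2 rab8d-2 and 874 to 882 in WT. The regulator MYB41 rose by 1.85 ± 0.13, the fatty acid hydroxylase CYP86B1 by 1.24 ± 0.05 and the exporter ABCG6 by 1.00 ± 0.05. Against sog1-1 rab8d-2 all 13 were higher (median 0.45), and against nac085-1 rab8d-2 2 were higher and 5 lower (median -0.08).

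Of 10 endodermis markers 7 rose and none fell (median 0.45). ESB1, which orders the lignin of the Casparian strip, had 137, 137 and 142 CPM in rab8d-2 and 189.7, 192 and 186 CPM in atm-2 rab8d-2 (0.45 ± 0.03, adjusted p = 9.02e-19), while the regulators SCR (0.07, adjusted p = 0.131) and MYB36 (0.02, adjusted p = 0.828) did not pass the test. Summed levels were 472 to 476 CPM in rab8d-2, 642 to 676 in atm-2 rab8d-2 and 676 to 696 in WT.

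Xylem markers rose as well, 10 of 14 with none falling and a median of 0.38, but stayed under WT. CESA4, a cellulose synthase of secondary walls, had 35.7, 35.5 and 34.5 CPM in rab8d-2 and 52.9, 53.1 and 52.1 CPM in atm-2 rab8d-2 (0.58 ± 0.04, adjusted p = 4.16e-17), with a WT mean of 78.7 CPM. The list summed to 397 to 398 CPM in rab8d-2, 483 to 489.8 in atm-2 rab8d-2, 739 to 769 in WT, 658 to 693 in sog1-1 rab8d-2 and 790.3 to 792 in nac085-1 rab8d-2. Direct tests had 11 xylem genes lower and none higher against sog1-1 rab8d-2 (median -0.37), and 12 lower and none higher against nac085-1 rab8d-2 (median -0.56).

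Phloem markers differed little from rab8d-2, with 3 of 10 rising, 1 falling and a median of 0.12. SWEET11, a sucrose exporter of the phloem, had 1.16 to 2.08 CPM in rab8d-2 and 1.56 to 2.05 CPM in atm-2 rab8d-2 (0.18, adjusted p = 0.483), against means of 51.0 CPM in WT, 19.0 CPM in sog1-1 rab8d-2 and 8.83 CPM in nac085-1 rab8d-2. The phloem regulator APL rose by 0.33 ± 0.08 (adjusted p = 0.000453). The fall of NAC045, a factor of sieve element maturation, was lost without rab8d-2 replicate 2 (-0.47, adjusted p = 0.0726) or atm-2 rab8d-2 replicate 3 (-0.41, adjusted p = 0.102). The rise of the phloem lectin PP2-A1 was lost without atm-2 rab8d-2 replicate 2 (0.10, adjusted p = 0.104), and that of the sieve element protein SEOR1 without rab8d-2 replicate 1 or 2 or atm-2 rab8d-2 replicate 3 (0.11 to 0.14, adjusted p from 0.0655 to 0.152). The list summed to 133 to 135 CPM in rab8d-2, 143 to 149 in atm-2 rab8d-2 and 316 to 319.7 in WT.

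**Figure D5:**
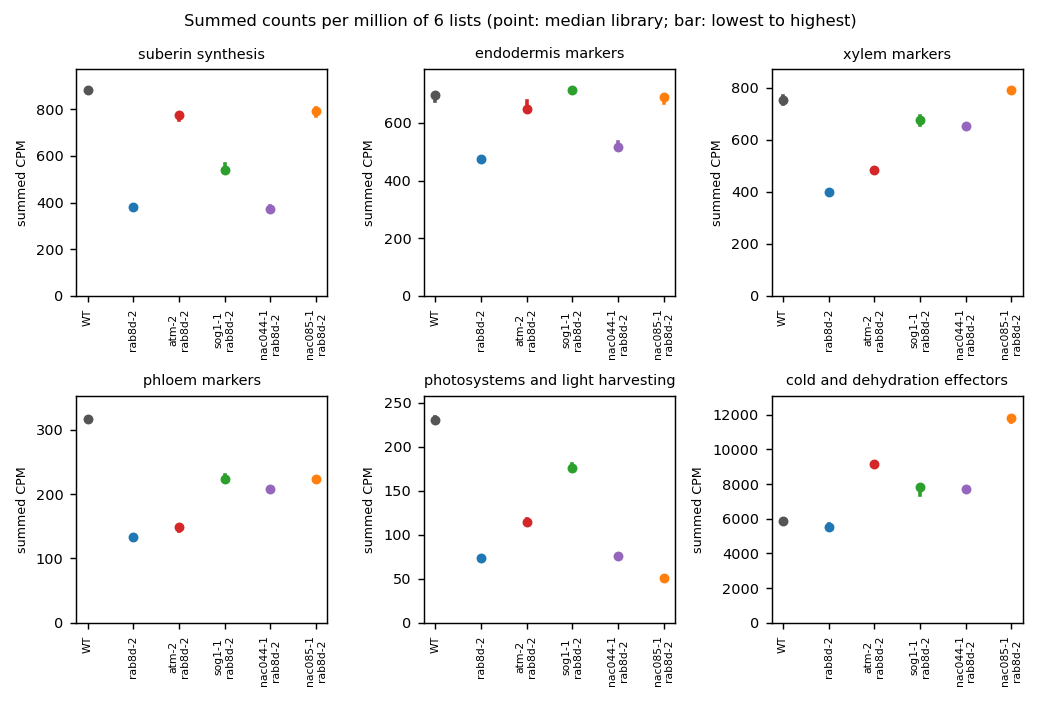
Summed CPM of the suberin, endodermis, xylem, phloem, photosystem and cold effector lists in 6 genotypes. Points are the median library and bars run from the lowest to the highest of 3 libraries, on a linear axis from 0. Suberin and endodermis sums of atm-2 rab8d-2 are near those of nac085-1 rab8d-2, and xylem and phloem sums are nearer to those of rab8d-2.

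Root hair markers had 6 of 9 rising and none falling (median 0.51), with RHD6, the factor that starts hair formation, at 19.6 to 21.3 CPM in rab8d-2 and 30.8 to 33.2 CPM in atm-2 rab8d-2 (0.64 ± 0.06). Of 4 root cap markers the regulators SMB (0.52 ± 0.10) and BRN1 (0.48 ± 0.08) rose. Of 5 genes that pattern the ground tissue, SHR and its zinc finger partners, 4 rose, SHR by 0.31 ± 0.06 and JKD by 0.23 ± 0.06, and AT3G45260 fell. Of the 4, the call of MGP was lost without rab8d-2 replicate 1 or any 1 of the atm-2 rab8d-2 replicates (0.10 to 0.18, adjusted p from 0.0528 to 0.278). Of 3 tested shoot markers (7 in the table), the stomatal gene TMM rose by 1.57 ± 0.42, the wax enzyme CER6 fell by 1.51 ± 0.19 and CER1 did not pass the test (-0.22, adjusted p = 0.376). Of 6 stem cell niche genes WOX5, which marks the quiescent centre, rose while the meristem factors PLT3 (-0.36 ± 0.04) and BBM (-0.35 ± 0.08) fell. WOX5 had 5.20, 4.64 and 5.22 CPM in rab8d-2 and 15.9, 15.4 and 16.7 CPM in atm-2 rab8d-2 (1.67 ± 0.09, adjusted p = 7.98e-22), with means of 1.20 CPM in WT, 5.11 CPM in sog1-1 rab8d-2 and 16.8 CPM in nac085-1 rab8d-2.

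Nuclear genes of photosynthesis were expressed at low levels in these roots and rose in the main, 15 of 23 tested (27 listed) with 3 falling and a median of 0.92. LHCA4, an antenna protein of photosystem I, had 9.24, 9.81 and 8.68 CPM in rab8d-2 and 23.3, 23.1 and 23.9 CPM in atm-2 rab8d-2 (1.34 ± 0.07, adjusted p = 1.52e-21). PSBO2, an oxygen-evolving subunit of photosystem II, fell by 0.67 ± 0.09 while its twin PSBO1 rose by 1.06 ± 0.11. The LHCB1 and LHCB2 antenna genes and the RBCS genes are families of near-identical copies, so their separate values are uncertain. The list summed to 73.1 to 74.5 CPM in rab8d-2, 115 to 118 in atm-2 rab8d-2, 228 to 234 in WT and 48.5 to 51.6 in nac085-1 rab8d-2. Against WT 17 of 23 were lower and 1 was higher, with a median of -1.17.

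GLK2, an activator of such genes, had 2.79, 2.22 and 2.49 CPM in rab8d-2 and 14.1, 12.8 and 13.0 CPM in atm-2 rab8d-2 (2.41 ± 0.11, adjusted p = 2.16e-24), where it no longer differed detectably from the WT mean of 12.4 CPM (0.10, adjusted p = 0.278). Among 11 tested genes of chlorophyll synthesis and carbon fixation (17 listed) 6 rose and 3 fell (median 0.78). CHLH, a subunit of magnesium chelatase, rose by 1.16 ± 0.08. HEMA1, the entry enzyme of the pathway, had 140.3, 143 and 140.3 CPM in rab8d-2 and 56.0, 55.3 and 58.2 CPM in atm-2 rab8d-2 (-1.32 ± 0.03, adjusted p = 7.61e-35), with a WT mean of 224 CPM.

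Beyond the lists, the largest rise among genes with a mean log2 CPM of 1 or more and groups that did not overlap was that of BGLU7, a glycosyl hydrolase, from 0.144, 0.0483 and 0.0959 CPM in rab8d-2 to 5.21, 5.65 and 5.00 CPM in atm-2 rab8d-2 (5.69 ± 0.31, adjusted p = 3.04e-21). ERD9, a glutathione S-transferase, rose by 3.99 ± 0.09 and AT1G66920 by 3.82 ± 0.25. Among the lowest was SADHU3-2, a pseudogene of a retrotransposon family, with 69.9, 70.5 and 69.9 CPM in rab8d-2 and 0.73, 0.877 and 1.07 CPM in atm-2 rab8d-2 (-6.29 ± 0.09, adjusted p = 5.73e-45). Its means were 3.93 CPM in WT, 30.6 CPM in sog1-1 rab8d-2 and 54.9 CPM in nac085-1 rab8d-2, so genotypes differed widely. QQS, a starch-related gene with no relatives outside Arabidopsis, had 7.08, 7.15 and 7.43 CPM in rab8d-2 and 0.292, 0.146 and 0.146 CPM in atm-2 rab8d-2, with 0.318 CPM in WT and 5.53 CPM in nac085-1 rab8d-2. AT3G44870, annotated as a methyltransferase, and AT1G20310 fell by 5.77 ± 0.13 and 5.57 ± 0.26.

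Some genes were on in only part of the genotypes. AT2G05642 had 693 counts in all in rab8d-2 and none in any atm-2 rab8d-2 library, at least 229-fold lower, and it had no count in WT or sog1-1 rab8d-2 either. AT3G45260, a zinc finger gene of the ground tissue family, had 4.19, 4.64 and 3.98 CPM in rab8d-2, or 266 counts in all, and no count in atm-2 rab8d-2, at least 87.8-fold lower. Its means were 5.13 CPM in WT, 5.47 CPM in sog1-1 rab8d-2 and 8.89 CPM in nac085-1 rab8d-2, and it lies on chromosome 3 as ATM does, with 206 tested genes between them. AT1G25055, an F-box family gene, had no count in rab8d-2 and 0, 3.47 and 21.8 CPM in the atm-2 rab8d-2 libraries. It passed the test but was uneven within the genotype, and the groups met at 0.

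Genes next to the mutated loci were looked at because a mutant line can carry linked differences. Of the 200 tested genes nearest to ATM in gene order, 59.0% were called and 11% were called and changed at least 2-fold, against 9.94% of all genes. Around RAB8D, mutant in both groups, the shares were 58.0% and 6.5%. Neither share called was above the 61.6% of all genes. Around ATM the lowest log2 fold change was that of CYP94B3 (-3.36) and the highest that of CDF3 (2.72), both list members named above. For genes this near to ATM, a linked difference and an effect of atm-2 cannot be told apart.

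Direct tests against sog1-1 rab8d-2 gave 5999 genes higher and 5553 lower in atm-2 rab8d-2, of which 458 and 1151 by at least 2-fold. Higher genes were 51.9% of those called, and 63.3% when log2(TPM + 1) values were tested with limma, an alternative that changed the test, the normalisation and the scale together. Among genes within the limits given for BGLU7, those that differed most were near-absent from 1 of the genotypes. AT1G27580 had a mean of 77.9 CPM in sog1-1 rab8d-2 and at most 0.474 CPM in any rab8d-2 or atm-2 rab8d-2 library. AT1G24388 and AT1G27570 had 31.7 and 11.2 CPM in sog1-1 rab8d-2 and no count in WT, rab8d-2 or atm-2 rab8d-2. On the other side, the retrotransposon pseudogene SADHU1-2 had 40.4 to 45.8 CPM and the pseudogene AT1G35115 61.5 to 70.4 CPM in atm-2 rab8d-2, with no count in sog1-1 rab8d-2. AT1G27180 and AT1G25211 had 0.674 and 1.05 CPM in sog1-1 rab8d-2 and were higher in atm-2 rab8d-2 by 5.60 and 5.28 on the log2 scale. Between rab8d-2 and atm-2 rab8d-2 AT1G35115 (-0.34), SADHU1-2 (-0.15), AT1G27180 (0.15) and AT1G25211 (0.26) changed by far less. AT1G24388, AT1G25211, AT1G27180, AT1G27570 and AT1G27580 have locus numbers close together on chromosome 1. Genes near SOG1 were not looked at in gene order, so how near these lie to it was not tested. A difference linked to the sog1-1 locus therefore cannot be told apart from an effect of either allele.

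Direct tests against nac085-1 rab8d-2 gave 4794 genes higher and 4853 lower, of which 271 and 411 by at least 2-fold. Among genes with a mean log2 CPM of 1 or more and groups that did not overlap, LHY (4.09), CCA1 (3.80) and PRR9 (3.06) were among the highest. Low among the same genes, with counts in both, were SADHU3-2 (-5.94), ZIP1, a zinc transporter (-5.57), and MRD1, a gene named for its low level in a methionine mutant (-5.26). ZIP1 had 3.61, 3.53 and 2.44 CPM in rab8d-2 and 0.0487, 0 and 0.291 CPM in atm-2 rab8d-2, and means of 6.42 CPM in WT, 7.06 CPM in sog1-1 rab8d-2 and 5.69 CPM in nac085-1 rab8d-2. Against WT 7007 genes were higher and 6694 lower, with 1091 and 1495 by at least 2-fold.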

How the data were processed

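RNA from whole roots was sequenced in 18 libraries, 3 for each of 6 genotypes, after oligo(dT) selection. The authors deposited 1 table of expected counts per gene, made with RSEM 1.3.1 per the submitters' processing notes, beside TPM and FPKM values of the same libraries; the genome build is not given in the sources used here. The deposited TPM values served as an alternative on the log2(TPM + 1) scale, and the deposited FPKM values were not used. FPKM and TPM both divide by gene length, and the expected counts, which were rounded to whole numbers, do not.

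Of 25537 genes, 19981 passed edgeR's filterByExpr. They were scaled by TMM and fitted over all 18 libraries with edgeR 4.0.16 (glmQLFit and glmQLFTest, R 4.3.3), with p-values adjusted after Benjamini and Hochberg over all genes tested. The threshold was an adjusted p of 0.05, ± is the standard error of a log2 fold change, and CPM is the TMM-scaled level. The common dispersion was 0.000566, a biological coefficient of variation of 2.38%. On simulated counts of 19981 genes for the main comparison the fit recovered 83.3% of genes changed by 0.5 on the log2 scale, 98.5% at 1 and 100% at 2, with 18 unchanged genes called. The simulation changed few genes, gave all groups the rab8d-2 means and drew every gene with the common dispersion. Most genes were called in the data, so these rates need not hold there. Alternatives were DESeq2 1.42.0, limma 3.58.1 on log2(TPM + 1), RLE and upper quartile scaling, other filters, a fit of the 6 libraries alone, a replicate block and leaving out each library. Replicate numbers did not pair the libraries: the deviations of same-numbered libraries correlated at -0.0292, 0.0585 and 0.0137.

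Genes were matched to RefSeq by locus (25462 of 25537). The 34 gene lists hold 469 genes, of which 465 are in the table and LOX2, PR2, GL1 and FAMA were not analysed here. The comparison and the lists were chosen with earlier results of these data known. Named genes are ATM and RAB8D, the 12 highest and 12 lowest called genes (mean log2 CPM not under 1, groups not overlapping), up to 6 members with the smallest p from each list, all members of the DNA damage, repair, inhibitor and clock lists, the 4 highest and 4 lowest against each other double mutant, and genes with 0 counts in 1 genotype and at least 100 in the other. Further list members are named as examples, chosen after their values were seen, and 1 DNA repair result is not reported here. Motifs were searched on both strands of the 250 bases before the annotated start of 19969 genes. A gene at 0 was given a floor of 3 counts over its 3 libraries, and floors and intervals cover counting error only. A planned scan by position was done in gene order, since no build is named for the table.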

Additional observations from a re-analysis of the deposited data

How the results depend on the processing

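For at least 2-fold changes, limma on log2(TPM + 1) gave fewer genes: 566 higher against rab8d-2 (906 in edgeR), 722 higher against WT (1091), 298 higher and 752 lower against sog1-1 rab8d-2 (458 and 1151), and 115 higher and 202 lower against nac085-1 rab8d-2 (271 and 411). It changed test, normalisation and scale together, and the cause was not tested. All other counts over all genes stayed within 1.5 times under DESeq2, RLE and upper quartile scaling, other filters, the fit of the 6 libraries alone and the replicate block. For genes higher against rab8d-2, DESeq2 gave 5474, RLE scaling 6078, upper quartile scaling 6724 and the replicate block 6323, against 6330. Without any 1 library, 5750 to 5981 genes were higher and 5580 to 5815 lower against rab8d-2, 881 to 920 and 1090 to 1119 by at least 2-fold. List medians were less steady. Under limma 18 of the 34 moved by more than the spread of the list between replicate libraries. Leaving out 1 library moved 83 medians in this sense and left 121 the same. No list median changed sign. No named gene changed direction among settings where it was called. With the replicate block RVE2 (adjusted p = 0.0529) and LIG4 (adjusted p = 0.0521) lost their calls, and no other call named in the text. Under DESeq2 both lost them too, as did ATR (adjusted p = 0.07), SMR7 (0.0605), KRP4 (0.119), SEOR1 (0.0681), MGP (0.132) and AT1G27180 (0.0625). Under limma RVE2, LIG4, ATR (0.145), KRP4 (0.0813), MGP (0.0759), AT1G27180 (0.0984) and SADHU1-2 (0.278) did. RVE2, LIG4 and MGP also lost their calls under RLE scaling and in the fit of the 6 libraries alone. Without a filter RVE2 and LIG4 lost them, and with the other filter RVE2 did. NBS1, WEE1, ELF3 and KRP5 passed the test in some settings only. At this depth genes under 1 CPM, such as SMR5, have wide errors.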

Other observations

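In 39 genes all 3 atm-2 rab8d-2 libraries were at least 2-fold below every one of the other 15 libraries, and in 12 genes they were at least 2-fold above. These genes were picked by that pattern, so the values are a description. Among the lower ones NPR3, a salicylate receptor that represses defence genes, had 24.4 to 26.5 CPM in atm-2 rab8d-2 and 53.6 to 439.9 CPM elsewhere. SRO5, a protein of the salt and oxidative stress response, had 32.9 to 34.8 CPM against 93.0 to 468 CPM. The nitrate transporter gene NRT1.8 had 0.485 to 0.827 CPM against 2.18 to 11 CPM, and AT3G16350 had 7.03 to 7.69 CPM against 42.9 to 97.3 CPM. For NPR3 and SRO5 the lowest library elsewhere was of nac085-1 rab8d-2, whose means were 55.0 and 96.0 CPM.

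Among the higher ones HDG1, a homeodomain factor of the epidermis, had 25.4 to 27.1 CPM in atm-2 rab8d-2 and 3.86 to 10.5 CPM elsewhere. G3Pp1, a glycerol-3-phosphate permease that responds to phosphate starvation, had 85.3 to 88.2 CPM against 10.9 to 39.7 CPM. SVP, a MADS-box repressor of flowering, had 15.6 to 17.1 CPM against 5.44 to 7.33 CPM, and its means in the other 5 genotypes lay close together. MES9, a methyl esterase, had 38.9 to 41.4 CPM against 6.71 to 16.8 CPM.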
